A study of Mus musculus with 47 samples.

Results

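The liver transcriptome of mice that received an organic sunscreen was compared with that of mice that received a sunscreen with TiO2 nanoparticles, both without ultraviolet radiation (UVR). The 12 arrays compared are 6 of the group Organic-UVR and 6 of the group TiO2-UVR, taken by their labels from 47 arrays in 8 groups, with 1 mouse per array. The animals were SKH:QS mice, a hairless albino strain with an intact immune system; only females were used, from an age of 8 weeks. Each was treated once per week, 30 times over 36 weeks, wore a collar against grooming during treatment, was washed after each treatment, and was killed about a day after the last one.

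Neither product was a single substance. The organic product held octylmethoxycinnamate, butyl methoxydibenzoylmethane, 4-methylbenzylidene camphor and octocrylene as UVR filters. The TiO2 product held TiO2 nanoparticles together with octylmethoxycinnamate and butyl methoxydibenzoylmethane. The products therefore share a pair of filters and differ in several ingredients at once. The shared pair was present at different concentrations in each product. The part of any single ingredient, shared or not, cannot be told apart. The study's methods give 1 cage of 10 mice for each group, in which case cage and product cannot be told apart either, while the sample labels give individual housing. The hour at which each liver was taken is not given in the sources used here. Control-UVR and Control + UVR (6 mice each) received no sunscreen. ZnO-UVR (6 mice) and ZnO + UVR (5 mice) received a sunscreen with ZnO nanoparticles. Organic + UVR and TiO2 + UVR (6 mice each) received the same products as the groups compared. The + UVR groups received 29 kJ/m2 UVR per treatment. All 47 arrays enter the main fit and its shared estimate of the spread, and so the errors and p-values of genes. Values of these other groups are given below only where they are named.

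Levels are log2 robust multi-array average (RMA) values, so that a step of 1 is a 2-fold change, and a difference is Organic-UVR minus TiO2-UVR. A transcript was called when its p-value, from limma's moderated test with the replicate number as a block and adjusted by Benjamini-Hochberg over all 9815 transcripts tested, was under 0.1. Of these transcripts, 67 (0.683%) were called, with 16 (0.163%) higher and 51 (0.52%) lower in Organic-UVR. Without the block 41 were called, and leaving out TiO2-UVR replicate 3 or 4 took the count to 37 or 40. The count and its split rose to 352 (186 higher, 166 lower) with array weights and to 124 (53 higher, 71 lower) with the array slope as a covariate, so that the excess of decreases depended on the setting. A change of at least 2-fold was reached by 5 of the called transcripts that were higher and 14 of those that were lower. The levels of the 6 Organic-UVR and the 6 TiO2-UVR mice did not overlap at all in 52 transcripts (0.53%), of which 32 were among the called. An unadjusted p under 0.05 was reached by 828 transcripts (8.44%). The median difference of all transcripts was 0.007.

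Of the 67 called transcripts 7 are genes of the circadian clock, among them 4 of the 19 that changed at least 2-fold. The clock lists held 1 activator, 10 repressors and 9 output genes that were measured. Of all transcripts, 0.683% were called. These lists were written with earlier results of these data known. In this clock, proteins that include the pair of BMAL1 with CLOCK or NPAS2 switch on genes through a short DNA motif named the E-box, among them the Per, Cry, Ciart and Nr1d genes, whose products feed back as repressors. NFIL3 and TEF bind another motif, the D-box, as a repressor and an activator. The loop gives many metabolic genes of the liver a daily rhythm, so that the level of a clock gene depends on the hour as well as on the tissue. Because whole liver was measured, fewer cells of a type and less RNA per cell cannot be told apart in any of the results.

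Promoters are shown for 4 called genes, all higher in Organic-UVR, in which the E-box letters CACGTG or the D-box letters TTANGTAA were found. They were read from RefSeq promoter windows of build GRCm38.p6, which run from 250 bases before to 50 after a gene's start. Each line gives the 250 bases before the start, 5′ to 3′ on the gene's strand, with motif letters in capitals.
Ciart, chr3:95882229-95882478, minus strand: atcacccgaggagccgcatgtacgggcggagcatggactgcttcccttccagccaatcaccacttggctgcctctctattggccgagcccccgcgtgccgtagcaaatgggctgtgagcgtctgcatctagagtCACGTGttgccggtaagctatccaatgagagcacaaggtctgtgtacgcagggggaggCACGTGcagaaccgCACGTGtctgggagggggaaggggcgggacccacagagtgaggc
Per1, chr11:69098699-69098948, plus strand: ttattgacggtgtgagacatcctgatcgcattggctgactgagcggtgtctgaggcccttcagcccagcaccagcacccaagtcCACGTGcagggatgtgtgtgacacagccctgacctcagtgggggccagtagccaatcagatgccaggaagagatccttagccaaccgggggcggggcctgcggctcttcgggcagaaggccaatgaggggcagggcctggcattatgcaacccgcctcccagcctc
Tef, chr15:81802423-81802672, plus strand: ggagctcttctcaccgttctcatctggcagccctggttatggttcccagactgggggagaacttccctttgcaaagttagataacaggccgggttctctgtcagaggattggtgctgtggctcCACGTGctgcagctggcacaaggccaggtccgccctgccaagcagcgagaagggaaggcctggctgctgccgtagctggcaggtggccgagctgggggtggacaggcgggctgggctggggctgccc
Coq10b, chr1:55052520-55052769, plus strand: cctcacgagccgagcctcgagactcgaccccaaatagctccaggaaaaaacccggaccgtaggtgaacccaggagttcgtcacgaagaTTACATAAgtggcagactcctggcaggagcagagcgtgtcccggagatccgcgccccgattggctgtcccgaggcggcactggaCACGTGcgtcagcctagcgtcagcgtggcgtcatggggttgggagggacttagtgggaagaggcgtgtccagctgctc
Ciart held 3 E-box matches, 116, 58 and 44 bases before its start. The window of Per1 shown held 1 match, 166 bases before the start, and a further Per1 window held none. Both windows of Tef held 1 match each. Coq10b held 1 E-box match 78 bases before its start and the single D-box match among the called genes, 162 bases before it. The windows of Nr1d2, Npas2 and Nfil3 held neither motif, and Per2 had no window. Of 55 called genes with a window, 8 held an E-box match in 9 of 77 windows (11.7%), against 7.15% of all 32851 windows. Holders not shown were Net1, Rnf145, Tars and Tsc22d1. Of these Rnf145 was higher and Tars lower in Organic-UVR, so that the match was not limited to genes that were higher. Both strands were searched. The D-box letters were in 1 of the 77 windows (1.3%) against 2.32% of all. An interferon-stimulated element was in 1 window, that of Lgals9, against 3.44% of all, and the estrogen response element was in none, against 0.07% of all. These are matches of letters in short windows and not measured binding.

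The labelled tissue was borne out by its markers. The 10 measured hepatocyte markers all lay above the median level of the array, and their mean level was 11.6 in Organic-UVR and 11.7 in TiO2-UVR. Markers of 9 cell types were compared by an exact permutation test over the 12 arrays (two-sided), and no difference passed the test, at adjusted p-values of 0.929 for each of the 9. Krt7, a keratin of bile duct cells, was the 1 marker that was called (0.40 ± 0.11, limma adjusted p = 0.0961), at a mean level of 4.65 below the median of 5.24, and its call was lost in 8 of 12 fits that left out 1 array. The mean over all 8 measured markers of bile duct cells went the other way, at -0.115, and did not pass the permutation test. One array stood apart. In Organic-UVR replicate 1 the slope of the levels on the mean levels of all arrays was 0.7725, so that bright transcripts read dimmer, against 0.9886 to 1.0379 in the other 5 Organic-UVR arrays and 0.9095 to 1.066 in TiO2-UVR. The slope of the arrays differed by -0.0288 between the groups and by 0.0114 without that array (means of 0.9731 ± 0.0998 and 1.0018 ± 0.0517, SD, n = 6 and 6; exact permutation test over all 12 arrays, two-sided, p = 0.636). Without Organic-UVR replicate 1 there were 71 calls, 39 higher and 32 lower, of which 42 were among the 67.

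Clock genes differed in both directions between the products. Ciart, a repressor of the BMAL1 complex, had the largest increase of all called transcripts. Its level ranged from 4.60 to 5.97 in TiO2-UVR (median 5.33) and from 6.02 to 9.08 in Organic-UVR (median 8.31). No mouse of either group reached the range of the other, although 2 Organic-UVR mice lay far below the other 4. The difference was 2.47 ± 0.54 (SE, n = 6 and 6; limma adjusted p = 0.0153), or 5.53-fold.

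Npas2, the activator that can stand in for CLOCK, had the largest decrease. Its level ranged from 4.63 to 7.30 in TiO2-UVR (median 6.30) and from 3.79 to 4.62 in Organic-UVR (median 4.06). The groups nearly touched, since 1 TiO2-UVR mouse was as low as the highest Organic-UVR mouse within rounding, while the other 5 were clearly higher. The difference was -2.13 ± 0.38 (limma adjusted p = 0.00196), or 4.38-fold lower in Organic-UVR. Nfil3 ranged from 8.17 to 9.51 in TiO2-UVR (median 8.91) and from 6.49 to 7.84 in Organic-UVR (median 7.49). Its groups were apart, and the difference was -1.58 ± 0.26 (limma adjusted p = 0.000702).

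The remaining called clock genes all rose in Organic-UVR. Nr1d2, which encodes the repressor REV-ERB beta, had a level of 6.63 to 8.70 in TiO2-UVR (median 7.62) and of 8.18 to 9.39 in Organic-UVR (median 9.08). The ranges crossed because of 1 mouse on each side, and the difference was 1.42 ± 0.27 (limma adjusted p = 0.0038). Per1 was at 4.90 to 5.74 in TiO2-UVR (median 5.22) and at 5.67 to 6.91 in Organic-UVR (median 6.24). Per2, its partner among the core repressors, was at 5.09 to 5.66 and at 5.65 to 6.49 (medians 5.46 and 6.24). In both Per genes 5 of 6 Organic-UVR mice lay above every TiO2-UVR mouse. The differences were 0.99 ± 0.19 for Per1 (limma adjusted p = 0.0044) and 0.73 ± 0.17 for Per2 (limma adjusted p = 0.0276). Tef was at 5.63 to 6.22 in TiO2-UVR (median 6.04) and at 6.35 to 7.51 in Organic-UVR (median 6.95). The groups did not overlap, and the difference was 0.90 ± 0.21 (limma adjusted p = 0.0322). Per2 was no longer called without TiO2-UVR replicate 2 (0.64, limma adjusted p = 0.109), and Tef without TiO2-UVR replicate 4 (0.83, limma adjusted p = 0.128) or Organic-UVR replicate 6 (0.73, limma adjusted p = 0.171).

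**Figure D1:**
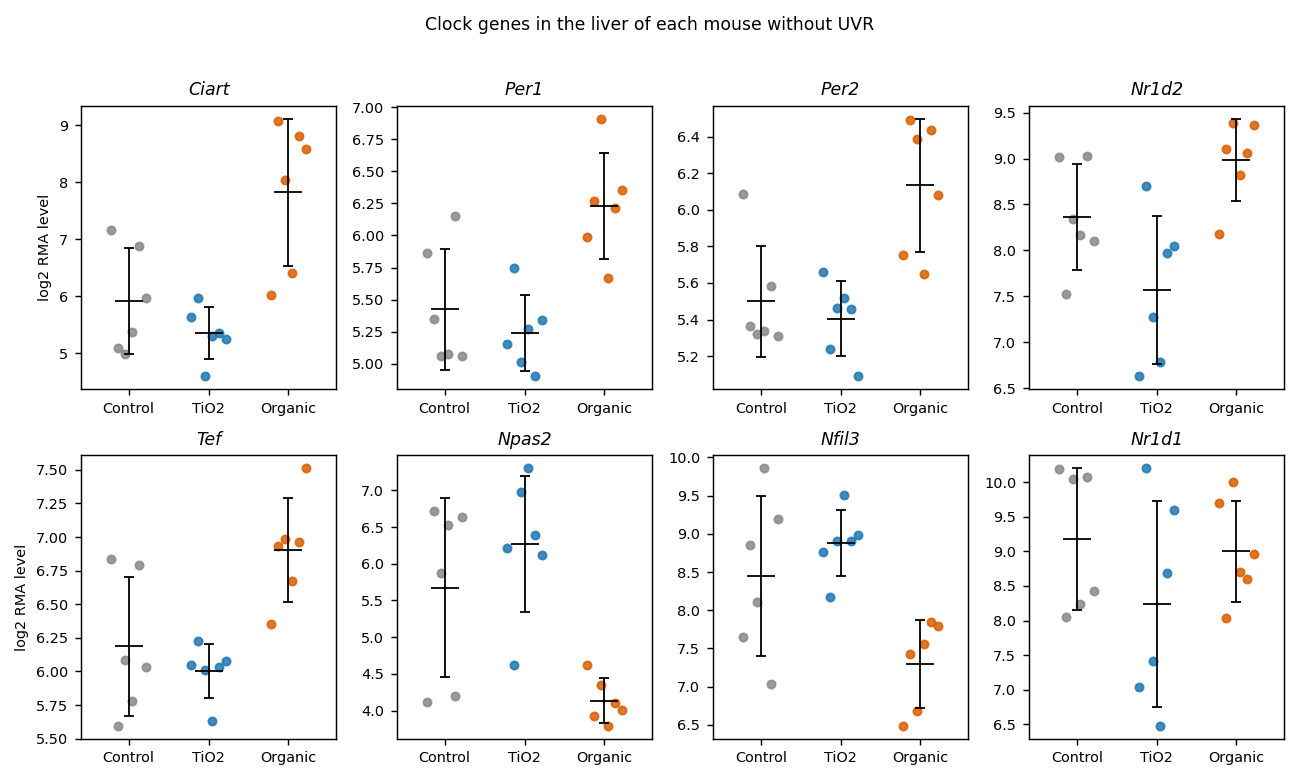
Log2 RMA level (vertical axis) of 8 clock genes in the liver of each mouse (points) of Control-UVR, TiO2-UVR and Organic-UVR, 6 mice each, with the group mean (bar) and SD (whiskers); each panel has its own scale. Ciart, Per1, Per2, Nr1d2 and Tef are higher and Npas2 and Nfil3 lower in Organic-UVR than in TiO2-UVR. Nr1d1 overlaps in part, with 3 TiO2-UVR mice below and 1 above every Organic-UVR mouse. The Control-UVR mice spread over both ranges in several panels.

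Not every clock gene on the array differed. Of 10 repressors of the clock measured, 4 were called higher and 1, Nfil3, lower, against 0.163% and 0.52% of all transcripts. The median difference of the 10 was 0.30. Nr1d1, which encodes REV-ERB alpha and is close in function to Nr1d2, was at 6.48 to 10.20 in TiO2-UVR (median 8.06) and at 8.03 to 10.00 in Organic-UVR (median 8.83). Its spread among the TiO2-UVR mice was the widest of the 8 genes plotted, and its difference of 0.76 was not called, with a 95% interval of -0.39 to 1.91. Cry1, a repressor that acts with the Per proteins, was at 6.02 to 8.17 in TiO2-UVR and at 5.69 to 7.32 in Organic-UVR. Its difference of -0.76 was not called either (limma adjusted p = 0.455). Of 9 output genes of the clock, 1 (Tef) was called and 8 had a difference above 0, with a median of 0.45. Among them were Ppp1r3g, which targets a phosphatase to glycogen (0.64, interval 0.26 to 1.02, limma adjusted p = 0.149), Cys1 (0.32, limma adjusted p = 0.224) and Hlf, a relative of Tef (0.45, limma adjusted p = 0.346). Npas2 was the only measured member of 7 listed activators of the clock.

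A score over the 7 called clock genes places each mouse on 1 scale. It is the mean z value of Ciart, Per1, Per2, Nr1d2 and Tef minus that of Npas2 and Nfil3, with z values taken over the 47 arrays. Since its genes were called in this comparison, it is a description with no test. The score ranged from 1.13 to 2.72 in Organic-UVR (median 2.00) and from -2.80 to -0.02 in TiO2-UVR (median -1.74). All 6 mice of the one group were above 0 and all 6 of the other below it. In Control-UVR it ranged from -2.42 to 1.58, with 2 mice above 0 and the other 4 below -1.01, so that mice of 1 group lay at both ends. ZnO-UVR was split in the same proportion, with 2 of 6 mice above 0. With UVR, all 6 Organic + UVR mice (0.44 to 2.49) and all 6 TiO2 + UVR mice (1.16 to 2.38) were above 0, while no mouse of Control + UVR (-1.76 to -0.02) or ZnO + UVR (-2.33 to -1.81, 5 mice) was. With the score as a covariate no transcript was called for the products (limma, 0 of 9815, against 786 at an unadjusted p under 0.05), and 58 of the 67 kept their direction. Because the score was built from genes called here and separates the 2 groups, a wider error and the loss of calls follow in part from how it was built. For the same reason the shares kept do not divide a difference into a part tied to the clock and a rest. They are given as values only. Of the 60 called transcripts outside the score, 55 kept their direction and 19 kept at least 75% of their difference, with a median of 51% kept. Amdhd1 went from -0.79 to -0.75, Psmd11 from -0.57 ± 0.14 to -0.57 ± 0.20, and Slc5a3 from 0.45 to 0.43. Tubb2a went from -2.04 to -0.24 and Slc30a10 from -1.29 to -0.21.

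**Figure D2:**
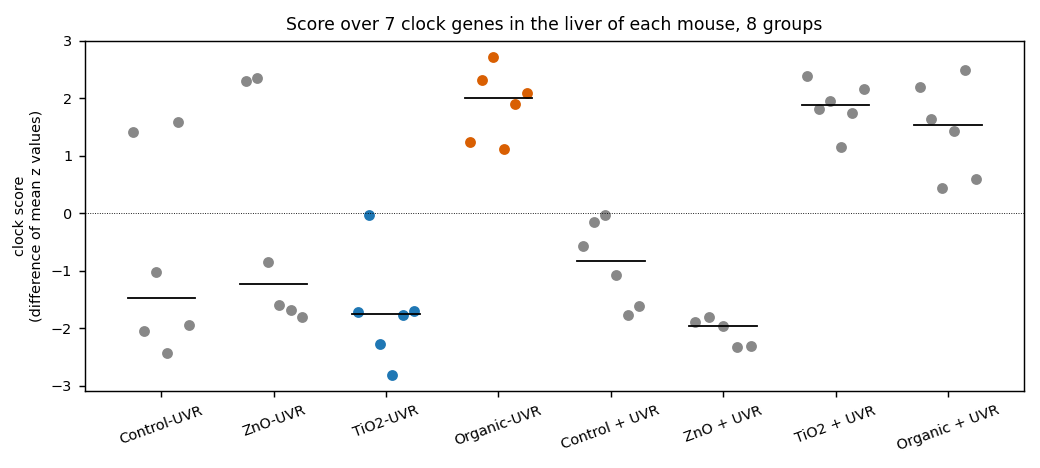
Clock score (difference of mean z values, vertical axis) of each of the 47 mice (points) in the 8 groups, with the group median (line); TiO2-UVR is blue and Organic-UVR orange. The 6 Organic-UVR mice lie between 1.13 and 2.72 and the 6 TiO2-UVR mice between -2.80 and -0.02, while 2 mice each of Control-UVR and ZnO-UVR lie above 0 and the rest of those groups below.

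**Figure D3:**
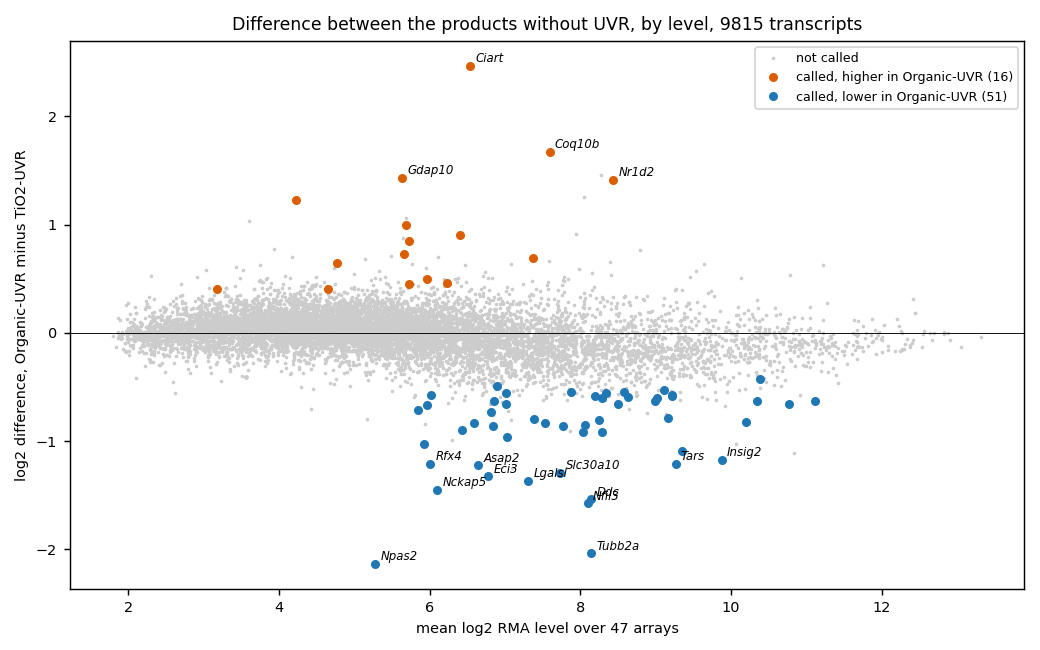
Log2 difference, Organic-UVR minus TiO2-UVR (vertical axis), against the mean log2 RMA level over 47 arrays (horizontal axis) of 9815 transcripts; the 16 called transcripts that were higher are orange, the 51 that were lower blue, the rest grey. Called increases lie at mean levels of 3.18 to 8.44 and called decreases at 5.28 to 11.11.

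Several genes of amino acid breakdown fell in Organic-UVR. Of 28 measured genes for amino acid breakdown and the urea cycle, 5 were called lower and none higher, against 0.52% of all transcripts called lower. All 51 called decreases lay among the 4907 transcripts above the median level of the array (5.28 or more, against 5.24). The median level of this list was 8.73, so 0.52% is too low a share for genes this bright, here and in the lists below. Beside a list with 1 call stands the share of 0.683% over all transcripts, and nothing is read from that call about the list. Ddc, which encodes the decarboxylase of aromatic amino acids, was at 8.32 to 9.62 in TiO2-UVR (median 8.77) and at 6.05 to 7.89 in Organic-UVR (median 7.56). The groups were apart, and 1 Organic-UVR mouse lay well below the other 5. The difference was -1.54 ± 0.24 (limma adjusted p = 0.00038), or 2.90-fold lower.

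Hal and Amdhd1 encode enzymes of the same route, the breakdown of histidine. Hal was at 10.34 to 10.81 in TiO2-UVR (median 10.41) and at 9.23 to 10.21 in Organic-UVR (median 9.69). Amdhd1 was at 9.01 to 9.70 and at 7.84 to 8.97 (medians 9.43 and 8.79). Neither gene overlapped between the groups. The differences were -0.83 ± 0.15 for Hal (limma adjusted p = 0.00221) and -0.79 ± 0.17 for Amdhd1 (limma adjusted p = 0.012). Bhmt, which remethylates homocysteine, was at 7.89 to 8.96 in TiO2-UVR (median 8.78) and at 7.45 to 8.30 in Organic-UVR (median 8.11). A single low TiO2-UVR mouse made the groups overlap, and the difference was -0.66 ± 0.14 (limma adjusted p = 0.0122). Acmsd, an enzyme of tryptophan breakdown, was at 7.53 to 8.59 and at 6.22 to 7.56 (medians 7.92 and 7.25), with 5 of 6 Organic-UVR mice below every TiO2-UVR mouse and a difference of -0.84 ± 0.20 (limma adjusted p = 0.0322). Acmsd was not called without TiO2-UVR replicate 3 (-0.71, limma adjusted p = 0.168), TiO2-UVR replicate 4 (-0.76, limma adjusted p = 0.131) or Organic-UVR replicate 1 (-0.66, limma adjusted p = 0.139).

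The remaining 23 genes of this list were not called. Hgd, an enzyme of tyrosine breakdown, came next (-0.46, limma adjusted p = 0.231). The median difference of the 28 was -0.31, with 27 of 28 below 0, beside -0.05 for the 4907 transcripts above the median level of the array. This median depends on the array of low slope, Organic-UVR replicate 1. Without this array the median of the list was -0.09 and 25 of 28 genes were below 0, and Ddc, Hal, Amdhd1 and Bhmt were still called.

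Genes of lipid metabolism differed in both directions. Insig2, which encodes a protein of the endoplasmic reticulum that holds back the activation of sterol synthesis, had the smallest p of all transcripts. It was at 10.07 to 10.82 in TiO2-UVR (median 10.45) and at 8.51 to 9.86 in Organic-UVR (median 9.28). The groups were apart, with a difference of -1.17 ± 0.17 (limma adjusted p = 0.00038), or 2.25-fold lower. Of the 14 measured genes for sterol and isoprenoid synthesis, 1 was called lower (Insig2) and 1 higher (Coq10b), with a median difference of -0.23 (-0.06 without Organic-UVR replicate 1) and 10 of 14 below 0. Hmgcs1, an early enzyme of the route, was not called (-0.58, interval -0.92 to -0.23, limma adjusted p = 0.149), but was with array weights, with a filter on dim transcripts and without Organic-UVR replicate 3 (-0.72, limma adjusted p = 0.0362). Rnf145, a ubiquitin ligase known to act on sterol regulation, was at 6.49 to 7.34 in TiO2-UVR and at 7.08 to 7.97 in Organic-UVR (0.69 ± 0.18, limma adjusted p = 0.0743). Its call was lost in 8 of 12 fits that left out 1 array, at adjusted p-values up to 0.213 from limma.

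The 2 called genes tied to coenzyme Q, the lipid electron carrier of mitochondria, moved in opposite directions. Coq10b, which encodes a protein that binds coenzyme Q, was at 6.47 to 6.98 in TiO2-UVR (median 6.64) and at 6.92 to 9.31 in Organic-UVR (median 8.62). The TiO2-UVR mice were tightly grouped and 5 of 6 Organic-UVR mice lay above them, with a difference of 1.67 ± 0.39 (limma adjusted p = 0.0322). Its call was just lost without TiO2-UVR replicate 1 (limma adjusted p = 0.101), Organic-UVR replicate 5 (0.103) or Organic-UVR replicate 6 (0.107), at differences of 1.58, 1.54 and 1.55. Coq8a, a kinase-like protein needed to make coenzyme Q, was at 8.25 to 8.91 in TiO2-UVR (median 8.59) and at 7.37 to 7.96 in Organic-UVR (median 7.63). Its groups did not overlap, and the difference was -0.92 ± 0.20 (limma adjusted p = 0.0143).

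Of 19 measured targets of PPAR alpha and genes of fatty acid oxidation, 1 was called, lower. This was Eci3, a peroxisomal isomerase of fatty acid breakdown, which was at 6.95 to 8.21 in TiO2-UVR (median 7.26) and at 4.58 to 6.94 in Organic-UVR (median 6.28). The groups bordered on each other, and the difference was -1.33 ± 0.27 (limma adjusted p = 0.00697). Hacl1, which shortens branched fatty acids in peroxisomes, differed by -0.63 ± 0.16 (limma adjusted p = 0.0511) with overlapping groups, and its call was lost in 4 of 12 fits that left out 1 array. Of 16 genes for fatty acid and phospholipid synthesis none was called. Lpin1, a phosphatase of that route, differed by 1.25 (limma adjusted p = 0.203), since Organic-UVR replicate 1 (6.44) stood apart from a group median of 9.03. Without that array it was 1.73 (limma adjusted p = 0.00729).

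Genes for charging tRNA and for the proteasome were lower where they differed. Tars, the synthetase that loads threonine onto its tRNA, was at 9.32 to 10.33 in TiO2-UVR (median 9.66) and at 7.16 to 9.002 in Organic-UVR (median 8.87). The groups were apart, with a difference of -1.21 ± 0.20 (limma adjusted p = 0.000702), or 2.31-fold lower. It was the 1 called gene of the 7 cytosolic tRNA synthetases that were measured. Rars (-0.51) and Farsb (-0.47) were not called (limma adjusted p = 0.17 and 0.268). Of 39 proteasome and ubiquitin genes, 2 were called lower, against 0.52% of all transcripts, both subunits of the regulatory particle of the proteasome. These were Psmd11 (-0.57 ± 0.14, limma adjusted p = 0.0422) and Psmc1 (-0.56 ± 0.14, limma adjusted p = 0.0625), and Psmd1 came next (-0.37, limma adjusted p = 0.165). Leaving out Organic-UVR replicate 1 took Psmd11 to -0.39 (limma adjusted p = 0.165) and Psmc1 to -0.38 (limma adjusted p = 0.248). Their calls were lost in 4 and 7 of the 12 fits that left out 1 array. The median of the synthetase list was -0.38, and -0.18 without Organic-UVR replicate 1. That of the proteasome list was -0.22, and -0.07 without it.

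Several of the largest decreases were in genes for the cytoskeleton, transport and receptors. Tubb2a, which encodes a beta tubulin, was at 8.40 to 9.70 in TiO2-UVR (median 9.06) and at 5.76 to 7.71 in Organic-UVR (median 7.07). The groups lay clearly apart, with a difference of -2.04 ± 0.35 (limma adjusted p = 0.00122), or 4.11-fold lower. It was the 1 called gene of 14 for tubulins and stathmins. Tuba4a, an alpha tubulin, differed by -0.67 and was not called (limma adjusted p = 0.221).

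Slc30a10, a manganese exporter of the family of zinc transporters, was at 8.13 to 8.63 in TiO2-UVR (median 8.31) and at 6.75 to 7.29 in Organic-UVR (median 7.14). Both groups were tight and far apart, with a difference of -1.29 ± 0.22 (limma adjusted p = 0.00118). It was the 1 called gene of 12 for zinc and manganese transport and metallothioneins. Avpr1a, the vasopressin receptor of hepatocytes, was at 9.55 to 10.52 in TiO2-UVR (median 9.71) and at 8.42 to 9.33 in Organic-UVR (median 8.70). Its groups did not overlap, and the difference was -1.09 ± 0.18 (limma adjusted p = 0.000702).

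**Figure D4:**
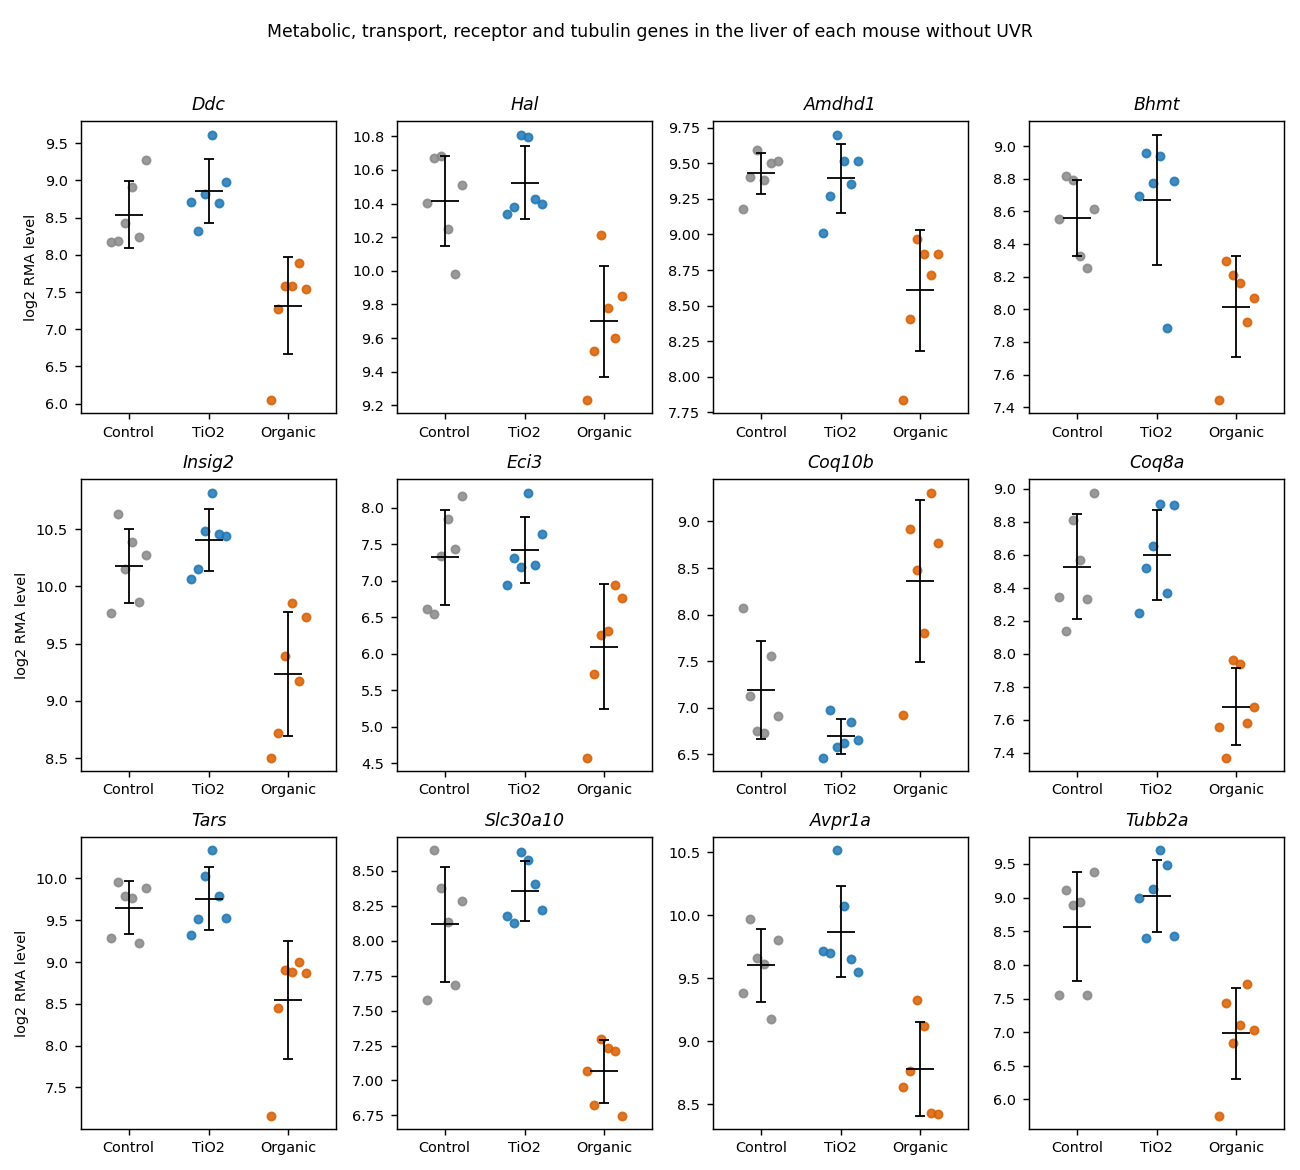
Log2 RMA level (vertical axis) of 12 metabolic, transport, receptor and tubulin genes in the liver of each mouse (points) of Control-UVR, TiO2-UVR and Organic-UVR, 6 mice each, with the group mean (bar) and SD (whiskers); each panel has its own scale. All but Coq10b are lower in Organic-UVR than in TiO2-UVR, 10 of the 12 without overlap, and the TiO2-UVR mice overlap the Control-UVR mice in every panel.

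The other genes with the largest decreases were Nckap5, Lgalsl, Asap2 and Rfx4. Lgalsl encodes a relative of the galectins, Asap2 a protein that acts on Arf GTPases, and Rfx4 a transcription factor of the winged helix type. Their differences were -1.45 ± 0.28, -1.37 ± 0.26, -1.22 ± 0.24 and -1.21 ± 0.22, at limma adjusted p-values of 0.00379, 0.00379, 0.0048 and 0.00252. No Organic-UVR mouse reached the TiO2-UVR range in any of them: Nckap5, for example, was at 6.39 to 7.31 in TiO2-UVR (median 6.72) and at 4.85 to 5.71 in Organic-UVR (median 5.31). A further Nckap5 probeset, dimmer at a mean level of 3.81, differed by -0.26 and was not called (limma adjusted p = 0.549). Mreg, the gene of melanoregulin, fell by 0.86 on the log2 scale (SE 0.16, limma adjusted p = 0.00221), again without overlap. Serpinb1a, a protease inhibitor, differed by as much (-1.25) with a larger error (0.41) and was not called (limma adjusted p = 0.222), although it was in the 12 arrays alone with the block (limma adjusted p = 0.0305).

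Among the increases outside the clock, Gdap10 was at 4.39 to 5.86 in TiO2-UVR (median 4.98) and at 4.86 to 7.87 in Organic-UVR (median 6.75). Its Organic-UVR mice spread widely, with 4 of 6 above every TiO2-UVR mouse, and the difference was 1.43 ± 0.31 (limma adjusted p = 0.0124). Gas2l3, a linker of the cytoskeleton, rose by 0.85 ± 0.21, and Dnajb3, a co-chaperone, by 0.64 ± 0.17 (limma adjusted p = 0.0579 and 0.0837). Mknk2, a kinase that acts downstream of MAP kinases on translation, rose by 0.50 ± 0.13, and Slc5a3, a transporter of myo-inositol, by 0.45 ± 0.12 (limma adjusted p = 0.0579 and 0.0961). The groups of all 4 overlapped, and their calls were lost in 7 to 9 of 12 fits that left out 1 array. Mknk2 was the 1 called gene of 32 for MAP kinase signalling and immediate early response. Klf10, a zinc finger gene of that list, was not called (0.87, limma adjusted p = 0.114), and without Organic-UVR replicate 1 its difference was 1.07 (limma adjusted p = 0.0206).

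In 22 of 35 gene lists no member was called. With 0.683% of all transcripts called, a list of this size can often hold none, and nothing is read from it. Some of their members are called under other settings, as given below. They cover estrogen receptor signalling, the thyroid, growth hormone and Igf1 axis, cytochrome P450 and related oxidases, conjugation and xenobiotic sensors, bile acid transport, interferon response, translation, DNA repair, p53, fatty acid synthesis, heme and iron, particle uptake and lysosome, inflammation, ER stress, actin and junctions, cell division, the respiratory chain, ribosomal proteins, genes higher in female or in male liver, pericentral genes and olfactory receptors. Their median differences ran from -0.26 to 0.08, and from -0.10 to 0.15 without Organic-UVR replicate 1. The remaining lists with a call held only genes named above: Per1 was the 1 called gene of 19 for glucose output and fasting, and Hal that of 9 periportal genes.

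For the lists nearest to the ingredients, the values were as follows. Of 18 genes of estrogen receptor signalling, Esr1, the receptor itself, was at 6.69 to 7.57 in TiO2-UVR and at 6.11 to 7.37 in Organic-UVR, with a difference of -0.16 and a 95% interval of -0.52 to 0.20. Igfbp1, which binds insulin-like growth factors, had the smallest p of that list (-0.91, limma adjusted p = 0.422), and it was called in a fit to the 12 arrays alone with the block (limma adjusted p = 0.0618). Of 76 listed oxidase genes only 20 were measured, and Cyp1a1 and Cyp1a2 had no transcript with 1 gene symbol. The nearest to a call of the 20 were Aox1, an aldehyde oxidase (-0.47, interval -0.79 to -0.15), and Fmo1, a flavin monooxygenase (-0.36, interval -0.68 to -0.04). Of 25 genes of particle uptake, lysosome and inflammasome, the nearest was Atp6v0a1, a subunit of the lysosomal proton pump (-0.51, interval -0.83 to -0.19). The scavenger receptor Marco differed by 0.14 (interval -0.38 to 0.66) and the inflammasome sensor Nlrp3 by -0.05 (interval -0.30 to 0.19). A change of 2-fold lay outside the intervals of Esr1, Aox1, Fmo1, Atp6v0a1, Marco and Nlrp3.

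Whether a gene of the interferon response was called depended on the setting. Rsad2, an antiviral enzyme, was at 5.62 to 7.14 in TiO2-UVR (median 6.29) and at 5.05 to 5.67 in Organic-UVR (median 5.54). Only the lowest TiO2-UVR mouse reached the Organic-UVR range, and the difference was -0.84 (limma adjusted p = 0.16, not called). It was called in the 12 arrays alone with the block (limma adjusted p = 0.0269), with array weights (0.0787), after quantile normalization (0.0962), with a filter on dim transcripts (0.095) and without TiO2-UVR replicate 2 (0.0851). Irgm1 (-0.64) and Irf9 (-0.38) were not called (limma adjusted p = 0.207 and 0.477), and Irgm1 was at 5.15 in Organic-UVR replicate 1 beside a group median of 6.88. The median of the 19 genes was -0.19, and -0.07 without that array.

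Elsewhere the smallest p of a list without a call belonged to Thra, a thyroid hormone receptor (-0.47, limma adjusted p = 0.149), and to Acox2, which shortens the side chain of bile acids (-0.58, limma adjusted p = 0.114). Array weights brought them to limma adjusted p-values of 0.00228 and 0.0101, and the 12 arrays alone with the block brought Acox2 to 0.0336. A1bg, a gene higher in the liver of female mice, differed by -1.11 (limma adjusted p = 0.2, and 0.0269 in the 12 arrays alone with the block). Creld2, a gene of the ER stress response, differed by -0.80 (limma adjusted p = 0.294), Stat5b, which relays growth hormone, by -0.44 (limma adjusted p = 0.163) and Sqstm1, an autophagy receptor, by -0.48 (limma adjusted p = 0.475). G6pc, the last enzyme of glucose output, differed by -1.03 with a 95% interval of -1.93 to -0.13 (limma adjusted p = 0.484).

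For 8 called genes, chosen after their values were seen, the group without sunscreen was set beside both products, and its arrays serve both comparisons. For Ddc the difference was -1.22 ± 0.24 for Organic-UVR minus Control-UVR and 0.32 ± 0.24 for TiO2-UVR minus Control-UVR. For Insig2 the values were -0.95 ± 0.17 and 0.22 ± 0.17, and for Tubb2a -1.59 ± 0.35 and 0.45 ± 0.35. Ciart differed by 1.91 ± 0.54 in Organic-UVR and by -0.56 ± 0.54 in TiO2-UVR, and Npas2 by -1.54 ± 0.38 and 0.59 ± 0.38. Nr1d2 was one of those in which the TiO2-UVR side was the larger, at -0.80 ± 0.27 against 0.62 ± 0.27 in Organic-UVR. Nckap5 (-1.52 ± 0.28 and -0.07 ± 0.28) and Amdhd1 (-0.82 ± 0.17 and -0.04 ± 0.17) had both values below 0, the second by less than its error. The difference of Organic-UVR from Control-UVR was called for Ddc, Insig2, Tubb2a, Ciart, Npas2, Nckap5 and Amdhd1 (limma adjusted p of 0.00591 to 0.0603). It was not called for Nr1d2 (limma adjusted p = 0.208). The genes were chosen by the product difference, which uses the same Organic-UVR arrays, so such calls are in part built in. For none of the 8 genes was the difference of TiO2-UVR from Control-UVR called (limma adjusted p of 0.968 to 0.99). Whether the place of Control-UVR relative to the products varied between genes is therefore not shown.

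With UVR no difference between the same 2 products passed this test. Between Organic + UVR and TiO2 + UVR no transcript was called (0%; limma), while 380 (3.87%) had an unadjusted p under 0.05. In a fit to those 12 arrays alone 25 were called, all higher. Of the 67 called without UVR, all 16 that were higher had a difference below 0 with UVR and 37 of the 51 that were lower had one above 0. These differences with UVR were small, with medians of -0.27 for the 16 and 0.11 for the 51. Only 7 of the 67 had an unadjusted p under 0.05 with UVR (limma), and no transcript was called. A reversal is therefore not shown. The share of opposite signs over all transcripts was not counted. The difference between the 2 contrasts was tested for every transcript. It was called for 32 (0.326%), of which 29 were among the 67, and 538 (5.48%) had an unadjusted p under 0.05 (limma). The tested difference contains the product difference without UVR, which chose the 67, so that much of this overlap is built in. The count of 32 ranged from 13 without Organic + UVR replicate 6 to 65 without Organic-UVR replicate 1. It also fell by more than 1.5 times without TiO2-UVR replicate 3 (17) or 4 (20), Organic-UVR replicate 3 (21) or 6 (20), TiO2 + UVR replicate 6 (16) or Organic + UVR replicate 3 (20). Ddc, for example, differed by -1.54 without and by 0.49 ± 0.24 with UVR (difference of the contrasts -2.02 ± 0.33, limma adjusted p = 0.00194). Insig2 differed by -1.17 without and by 0.31 ± 0.17 with UVR (-1.48 ± 0.25, limma adjusted p = 0.00194), and Ciart by 2.47 and by -1.02 ± 0.54 (3.49 ± 0.76, limma adjusted p = 0.0352). Nfil3 (-1.40 ± 0.37, limma adjusted p = 0.127) and Tef (1.13 ± 0.30, limma adjusted p = 0.136) are called genes in which the contrasts were not shown to differ.

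**Figure D5:**
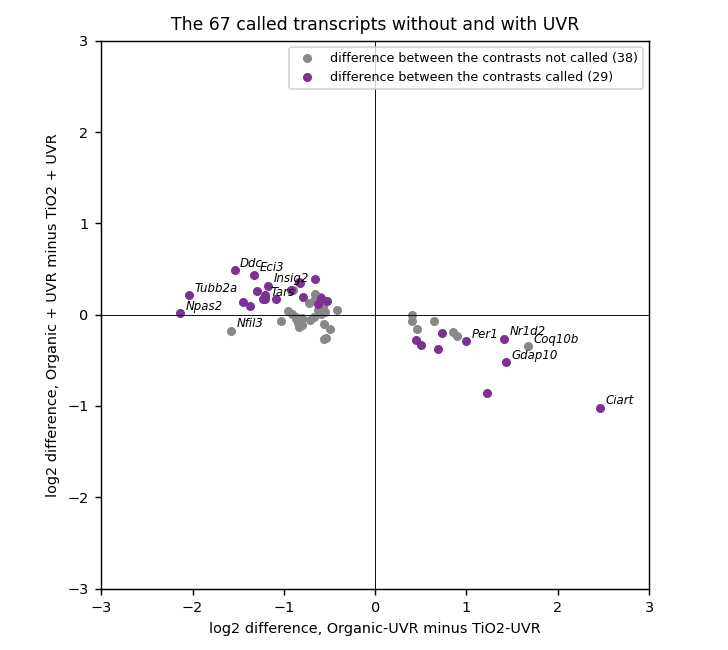
Log2 difference between the products with UVR (Organic + UVR minus TiO2 + UVR, vertical axis) against that without UVR (Organic-UVR minus TiO2-UVR, horizontal axis) for the 67 transcripts called without UVR; in the 29 purple ones the difference between the contrasts was called too, in the 38 grey ones it was not. The points spread from -2.13 to 2.47 across and stay between -1.02 and 0.49 upward, with all 16 increases below 0.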

How the data were processed

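The assay was the Affymetrix Mouse Gene 1.0 ST array, run on liver RNA of 47 mice. The deposited values are log2 values that the authors made by RMA; their methods describe 6 batches of 8 chips and a removal of batch effects, and whether the deposited log2 values had that step is not stated in the sources used here. The table used holds 16383 probesets, part of the array; 6568 control probesets were left out and 9815 transcripts tested, of which 7450 had 1 gene symbol, 511 several and 1854 none. No column was left unmapped. Nearly all transcripts placed on a chromosome were on chromosomes 1 and 10 to 16, and no other chromosome had more than 31. The gene lists are therefore incomplete, and their counts cover measured genes only.

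Groups were taken from the labels. All 47 arrays were fitted together in limma 3.58.1 (R 4.3.3) with group and replicate number, which left 34 residual degrees of freedom, and p-values were adjusted by Benjamini-Hochberg over 9815 transcripts at 0.1. The replicate number was a block because the methods put 1 chip of each group in each batch. The labels do not say that the replicate number is the batch, so the fit without the block is given as an alternative. Deviations of same-numbered Organic-UVR and TiO2-UVR arrays correlated at 0.159 to 0.746 (6 of 6 over 0.1), and 3 of 6 correlated best with their own number. Intervals are 95% intervals of the fit, reaching a median of 0.29 to either side, and precision is limited by the number of arrays.

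The genes named are the 12 called with the largest increase and decrease, those with the smallest p of each list, and a set of clock, interferon, receptor and inflammasome genes; some of the 3 with the smallest p per list are not printed. Bhmt, Acmsd, Coq8a, Hacl1, Avpr1a, Mreg, Krt7, Nr1d1 and Hlf, the clock score and the 8 genes set beside Control-UVR were chosen after their values were seen. Members and lists were chosen with earlier results of these data known. Scripts were tested on simulated data. Alternatives were no block, 12 arrays alone, weighted arrays, leaving out dim transcripts, quantile normalization, a threshold of 0.05, 1 transcript per gene, unmoderated variances, the array slope or clock score as a covariate, and leaving out arrays. Promoters came from RefSeq tables (GRCm38.p6).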

Additional observations from a re-analysis of the deposited data

Results flagged for a closer look

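In groups of 6, single arrays stood apart from the rest by Dixon's criterion, which flags about 1 in 20 groups by chance. In Organic-UVR replicate 1 these were Lpin1 at 6.44, Ddc at 6.05, Acmsd at 6.22, Tars at 7.16, Psmd11 at 7.83, Irgm1 at 5.15, Hgd at 10.29 and Mreg at 5.57, all the lowest of their group, and the array slope of 0.7725. In TiO2-UVR they were Tef at 5.63 (replicate 4), Ppp1r3g at 6.16 (replicate 2), Bhmt at 7.89 and Fmo1 at 11.02 (replicate 5), Asap2 at 7.72 (replicate 3) and Thra at 5.51 (replicate 1).

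For 26 of 66 named genes the product difference without UVR differed from that with UVR by limma's interaction test, against 0.326% of all transcripts. Named genes were mostly picked by the product difference without UVR. That difference is part of the interaction test, so the higher share is in part built in. The difference without UVR minus that with UVR was below 0 for 17 of the 26. It was -2.25 for Tubb2a, -2.15 for Npas2, -2.02 for Ddc, -1.76 for Eci3, -1.59 for Nckap5, -1.56 for Slc30a10, -1.48 for Insig2, -1.46 for Lgalsl and -1.43 for Rfx4. It was -1.40 for Asap2, -1.38 for Tars, -1.26 for Avpr1a, -1.20 for Acmsd, -1.19 for Coq8a, -1.18 for Hal, -1.04 for Bhmt and -0.98 for Amdhd1. Above 0 it was 0.72 for Slc5a3, 0.83 for Mknk2, 0.93 for Per2, 1.07 for Rnf145, 1.12 for Ppp1r3g, 1.29 for Per1, 1.68 for Nr1d2, 1.96 for Gdap10 and 3.49 for Ciart.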

How the results depend on the processing

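The 67 calls became 41 without the replicate block, 20 in the 12 arrays alone without it and 94 with it, 352 (186 higher, 166 lower) with array weights, 103 after quantile normalization, 113 with a filter on dim transcripts, 42 at an adjusted p under 0.05, 124 (53 higher, 71 lower) with the array slope and 0 with the clock score as a covariate (786 at an unadjusted p under 0.05). Leaving out 1 array gave 37 to 72. All 67 kept their direction wherever tested, except 9 with the clock score. The 32 interaction calls became 13 without the block, 210, 50, 20 and 121 with weights, quantile normalization, the stricter threshold and the slope, 15 with unmoderated variances, 0 with the clock score, 54 without both replicates 1, and 13 to 65 without 1 array. With UVR there were 25 calls in 12 arrays alone, 2 with weights and 0 without any 1 array. The slope difference ranged from -0.0472 to 0.0114 and was reversed without Organic-UVR replicate 1. With the clock score, which holds 7 of these genes, differences turned to 0.16 for Npas2, -0.35 for Ciart, -0.053 for Nr1d2, -0.27 for Tef, -0.46 for Lpin1, -0.012 for Coq10b, 0.0875 for Nckap5, 0.0693 for Lgalsl, 0.0535 for Nlrp3, 0.21 for Creld2, -0.49 for Nr1d1 and -0.35 for Hlf. Others moved little, as -0.75 for Amdhd1, -0.57 for Psmd11, -0.58 for Hacl1, -0.55 for Bhmt, -1.04 for Eci3 and 0.43 for Slc5a3, and 55 of 60 called transcripts outside the score kept their direction. Esr1 was at 0.0792 with array weights, and Nlrp3 ranged from -0.14 without both replicates 1 to 0.0025 without TiO2-UVR replicate 6. The score, the pair of arrays left out and the interaction alternatives were chosen after seeing the data. No cause of the differences was tested, the clock included. Dim transcripts near background limit what could be called.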
